A study of Mus musculus with 6 samples.

Results

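The post-squalene arm of cholesterol synthesis is the run of enzymes that turns the open chain of squalene into cholesterol. It was examined here through 9 genes taken by symbol from the count table, in pathway order Sqle, Lss, Cyp51, Sc4mol (the older symbol of Msmo1), Nsdhl, Hsd17b7, Ebp, Sc5d and Dhcr7. All 9 were found among the 44788 genes listed. RNA-seq was performed on ovaries of 8-week-old C57BL/6 J mice, 3 wild type (Bnc1+/+, replicates 1, 4 and 7) and 3 homozygous for a truncated allele of the transcription factor gene Bnc1 (Bnc1tr/tr, replicates 1, 2 and 3). The allele lacks a short stretch of exon 4, which shifts the reading frame, and it is carried by every cell of the mouse, so the comparison is not limited to oocytes. No treatment is named in the labels. Each library was made from ovary tissue, not from sorted cells, and the study compared littermates, but the litter and the estrous stage of each mouse are not given in the sources used here.

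Cells make cholesterol when sterols in the endoplasmic reticulum run low, because the factor SREBP-2 (gene Srebf2) is then released and switches on the enzymes of the mevalonate arm and of the post-squalene arm. The ovary uses cholesterol in bulk, since theca, granulosa and above all luteal cells convert it to steroid hormones. The post-squalene arm has a further tie to this tissue. The sterol that CYP51 makes, FF-MAS, and the next intermediate were named meiosis-activating sterols for their effect on isolated oocytes, and HSD17B7, a sterol ketone reductase of the arm, was first described in the corpus luteum as a protein associated with the prolactin receptor.

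The mean level of the arm's transcripts was lower in Bnc1tr/tr ovaries at each of the 9 steps, and the log2 fold change was negative for all 9, as for 47.4% of all genes tested. With edgeR's quasi-likelihood test (two-sided, Benjamini-Hochberg adjustment over the 19423 genes tested, threshold 0.05), 8 of the 9 genes were differentially expressed genes (DEGs) and all 8 were lower. Among all genes tested 7.06% were DEGs and 4.19% were DEGs lower in Bnc1tr/tr ovaries. With a log2 fold change under -1 as well, 7 of the 9 passed, against 1.8% of all genes tested. The sum of the 9 genes was 1610, 2200 and 2160 CPM (reads per 1000000 of the library, after TMM factors had been applied to the totals) in Bnc1+/+ replicates 1, 4 and 7, and 470, 544 and 627 CPM in Bnc1tr/tr replicates 1, 2 and 3. The mean sum was therefore 27.5% of the Bnc1+/+ mean. The median log2 fold change of the 9 genes was -1.44, against 0.018 for all genes tested. For every one of the 9 genes the highest Bnc1tr/tr ovary lay below the lowest Bnc1+/+ ovary, as was true of 15.8% of all genes tested. An exact two-sided permutation test on each gene alone gave p = 0.1, the smallest value that 3 ovaries against 3 allow. Since whole ovaries were sequenced, fewer cells of a type and less RNA per cell cannot be told apart.

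**Figure D1:**
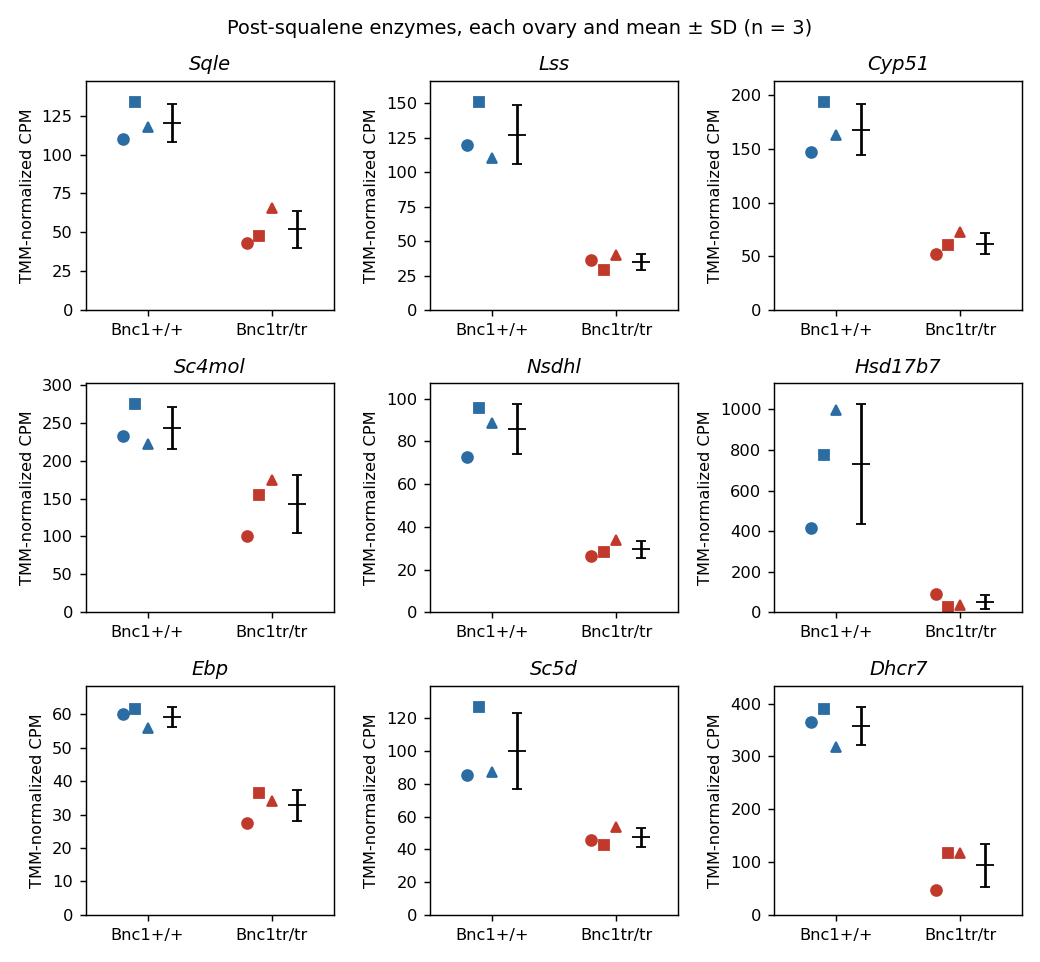
Expression of the 9 enzyme genes in TMM-normalized CPM (linear axes from 0), with Bnc1+/+ ovaries in blue (circle, square and triangle for replicates 1, 4 and 7) and Bnc1tr/tr ovaries in red (replicates 1, 2 and 3), and the mean ± SD in black (n = 3 each). In each panel the red points lie below the blue ones. The narrowest gap is that of Sc4mol (lowest Bnc1+/+ value 1.27 times the highest Bnc1tr/tr value), the widest that of Hsd17b7 (4.55 times).

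Totals were between 25247770 and 34406296 reads per ovary on genes, so each of the 9 genes had at least 734 reads in every library. Bnc1 itself had 375, 444 and 381 reads in Bnc1+/+ ovaries against 527, 355 and 326 in Bnc1tr/tr (log2 fold change 0.12, adjusted p = 0.73 with edgeR), and gene totals do not show the small deletion. The ovary label held, since all 9 oocyte markers and all 8 granulosa markers had reads in every library. The lowest mean was that of Dazl, 2.44 CPM in Bnc1+/+ ovaries. Among the more abundant ones, the oocyte markers Gdf9, Bmp15 and Zp1 to Zp3 and the granulosa markers Foxl2, Amh and Inha had a mean of at least 28.5 CPM in both genotypes. Libraries differed in the RNA of neighbouring tissue. The summed level of 5 oviduct markers was 551 CPM in Bnc1tr/tr replicate 3 and 160 CPM in Bnc1+/+ replicate 1, and between 42.9 and 46.6 CPM in the other 4 libraries. Without Bnc1tr/tr replicate 3 there were again 8 DEGs among the 9 genes, with a median log2 fold change of -1.57. That fit kept the mutant libraries with the most adipocyte RNA. The summed adipocyte markers were at 253, 202 and 28.7 CPM in Bnc1tr/tr replicates 1, 2 and 3. In Bnc1+/+ replicates 1, 4 and 7 they were at 43, 13.4 and 78.2 CPM. The effect of adipocyte RNA on the 9 genes was not tested.

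Promoter sequences of members that moved together are shown for the genes with the largest and the smallest called change (Hsd17b7 and Ebp) and for Lss and Nsdhl, which had the lowest adjusted p values of the arm. They are the bases before both the RefSeq and the GENCODE start of each gene, 5′ to 3′ in the direction of transcription, from RefSeq on GRCm38.p6. Capitals mark the letters CCAAT (read ATTGG on the other strand), the box bound by NF-Y, and GGGCGG (read CCGCCC on the other strand), the core bound by Sp1.
Hsd17b7, chr1:169969242-169969455, minus strand: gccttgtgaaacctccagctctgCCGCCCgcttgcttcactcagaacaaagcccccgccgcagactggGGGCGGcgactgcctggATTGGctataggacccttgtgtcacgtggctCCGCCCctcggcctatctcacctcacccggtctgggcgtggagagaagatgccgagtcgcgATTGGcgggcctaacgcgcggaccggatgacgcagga
Ebp, chrX:8193513-8193762, minus strand: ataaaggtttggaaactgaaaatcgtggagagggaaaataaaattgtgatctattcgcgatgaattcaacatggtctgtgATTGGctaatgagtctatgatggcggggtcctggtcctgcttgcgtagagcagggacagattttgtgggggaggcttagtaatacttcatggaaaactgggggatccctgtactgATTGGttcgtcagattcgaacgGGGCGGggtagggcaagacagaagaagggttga
Lss, chr10:76531355-76531587, plus strand: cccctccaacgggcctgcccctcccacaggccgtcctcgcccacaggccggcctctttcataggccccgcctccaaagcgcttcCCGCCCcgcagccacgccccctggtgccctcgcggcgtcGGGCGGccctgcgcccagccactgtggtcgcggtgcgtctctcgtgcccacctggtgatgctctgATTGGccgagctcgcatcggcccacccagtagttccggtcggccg
Nsdhl, chrX:72918271-72918520, plus strand: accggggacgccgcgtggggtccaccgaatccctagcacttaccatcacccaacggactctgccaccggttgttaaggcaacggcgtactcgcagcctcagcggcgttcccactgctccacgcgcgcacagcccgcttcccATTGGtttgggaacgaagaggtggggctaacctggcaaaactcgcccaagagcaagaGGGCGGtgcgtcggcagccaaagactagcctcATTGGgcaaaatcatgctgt

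Promoter windows (250 bases before to 50 after a RefSeq start) were given for 8 of the 9 members, with 10 windows in all because Dhcr7 had 3, and for Sqle none was used here. CCAAT was held by 8 of the 10 windows, against 37.4% of 32851 windows of all genes, and GGGCGG by 9 of the 10, against 35.7%. The exceptions were windows of Dhcr7, which held each motif in at least 1 of its 3. For the sterol element, 1 fixed form (TCACNCCAC) and its shorter core (CACNCCAC), which overlaps it, were searched on both strands. They matched in no member window, and matched 1.24% and 6.24% of all windows. Other forms of the element were not searched, so these counts do not show whether the promoters hold one. CAAGGTCA, the letters bound by the NR5A receptors SF-1 and LRH-1, matched 1.56% of all windows and, among the members, 1 window of Dhcr7, from 52 to 45 bases before its start. In the Hsd17b7 promoter printed above, the CCAAT boxes begin 165 and 73 bases before the RefSeq start and the GGGCGG cores 227, 182 and 134 bases before it. These matches describe the letters of the windows only.

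The arm opens with Sqle and Lss. Sqle, on chromosome 15 of GRCm38 (59315077 to 59331192, plus strand), encodes squalene epoxidase, an oxygen-dependent step that is held to limit flux through the arm. Its level was 110, 134 and 118 CPM in Bnc1+/+ ovaries against 42.9, 47.5 and 65.6 CPM in Bnc1tr/tr. Sqle fell 2.32-fold (95% interval 1.78 to 3.02), a log2 fold change of -1.21 with a standard error of 0.16 (edgeR, Benjamini-Hochberg adjusted p = 0.0067). Lss, on chromosome 10 (76531588 to 76557138, plus strand), encodes lanosterol synthase, which folds the epoxide into the first sterol of the pathway. It stood at 120, 151 and 110 CPM in Bnc1+/+ and at 35.9, 28.8 and 39.8 CPM in Bnc1tr/tr ovaries. The lowest wild-type ovary thus had 2.77 times as much Lss as the highest mutant ovary. The fold was 3.65 (95% interval 2.83 to 4.72, edgeR, Benjamini-Hochberg adjusted p = 0.0017), and Lss ranked 37 by p among the 19423 genes tested. Fdft1, squalene synthase, which feeds the arm, fell by nearly the same amount as Sqle (log2 fold change -1.21, edgeR, Benjamini-Hochberg adjusted p = 0.0067). The log2 ratio of Sqle to Fdft1 within an ovary was -0.57 ± 0.12 in Bnc1+/+ ovaries against -0.59 ± 0.18 in Bnc1tr/tr (SD, n = 3 each).

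Cyp51 and the reductases Tm7sf2 and Lbr make and use the meiosis-activating sterols. Cyp51, on chromosome 5 (4081145 to 4104746, minus strand), encodes lanosterol demethylase, the cytochrome P450 that makes FF-MAS. Its level was 147, 194 and 163 CPM in Bnc1+/+ ovaries against 52.5, 60.7 and 72.6 CPM in Bnc1tr/tr. The lowest wild-type ovary had 2.03 times the level of the highest mutant ovary. Cyp51 fell 2.71-fold (95% interval 2.14 to 3.45, edgeR, Benjamini-Hochberg adjusted p = 0.0029). The reductases that turn FF-MAS into the next sterol were examined beside the 9 members. Tm7sf2 was at 42.8, 57.8 and 66.4 CPM in Bnc1+/+ ovaries against 16.3, 22.2 and 25.1 CPM in Bnc1tr/tr, and fell by 1.39 on the log2 scale (standard error 0.20, edgeR, Benjamini-Hochberg adjusted p = 0.0087). Lbr, which encodes a protein of the nuclear envelope with the same reductase activity, was at 39.1, 39.1 and 35.8 CPM in Bnc1+/+ ovaries against 47.6, 35.3 and 42.5 CPM in Bnc1tr/tr, which overlap (log2 fold change 0.14, 95% interval -0.14 to 0.41, edgeR, Benjamini-Hochberg adjusted p = 0.53). The log2 ratio of Tm7sf2 to Lbr was 0.13, 0.56 and 0.89 in Bnc1+/+ ovaries against -1.55, -0.67 and -0.76 in Bnc1tr/tr, without overlap.

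Sc4mol, Nsdhl and Hsd17b7 encode the enzymes that together strip the methyl groups from one carbon of the sterol ring, on a scaffold protein whose gene is listed as 0610007P14Rik (Erg28). These neighbours in the pathway included both the smallest and the largest change of the arm. Sc4mol, on chromosome 8 (64718139 to 64733792, minus strand), encodes the methyl oxidase that starts this stage. Its level was 232, 274 and 222 CPM in Bnc1+/+ ovaries against 101, 154 and 175 CPM in Bnc1tr/tr. The groups did not overlap, but Sc4mol was the 1 member that missed the threshold (log2 fold change -0.76, 95% interval -1.21 to -0.31, edgeR, Benjamini-Hochberg adjusted p = 0.059). It passed without Bnc1tr/tr replicate 1, whose value was the lowest (Benjamini-Hochberg adjusted p = 0.046 with edgeR), with no filter on low counts (0.029) and with DESeq2 (0.0021), and missed under the other 10 alternatives tried. Nsdhl, on the X chromosome (72918557 to 72958514, plus strand), encodes the dehydrogenase of the same stage. Its ovaries were at 72.7, 95.6 and 88.5 CPM in Bnc1+/+ and 26.5, 28.3 and 34.0 CPM in Bnc1tr/tr, a spread of 13.7% and 13.3% of the mean. Nsdhl fell 2.89-fold (95% interval 2.32 to 3.61, edgeR, Benjamini-Hochberg adjusted p = 0.0018). The scaffold gene 0610007P14Rik fell 1.44-fold, from 72.9 ± 4.29 to 50.5 ± 6.44 CPM (SD, n = 3 each, edgeR, Benjamini-Hochberg adjusted p = 0.032).

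Hsd17b7, on chromosome 1 (169949535 to 169969241, minus strand), had the largest change of the 9 genes and a wide spread between ovaries. The enzyme reduces the sterol ketone left by NSDHL and can also reduce estrone to estradiol. Its level was 415, 776 and 999 CPM in Bnc1+/+ ovaries against 91.2, 28.4 and 34.8 CPM in Bnc1tr/tr. The wild-type ovaries alone spanned 1.27 on the log2 scale and the mutant ovaries 1.68, where none of the other 8 genes spanned more than 0.57 in Bnc1+/+, although Dhcr7 spanned 1.33 in Bnc1tr/tr. Hsd17b7 nevertheless fell 14.2-fold (95% interval 6.12 to 32.8, edgeR, Benjamini-Hochberg adjusted p = 0.0068), and its log2 fold change of -3.82 ranked 19 among the 19423 genes tested, counted from the most negative. The log2 ratio of Hsd17b7 to Nsdhl, the step before it, was 2.51, 3.02 and 3.50 in Bnc1+/+ ovaries against 1.79, 0.01 and 0.03 in Bnc1tr/tr. The ratio was thus lower in every mutant ovary than in any wild-type ovary, with Bnc1tr/tr replicate 1 nearest to the wild type. Without Bnc1tr/tr replicate 1 the log2 fold change was -4.53.

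The last 3 members finish the ring and act after the methyl groups are gone. Ebp, on the X chromosome (8185329 to 8193512, minus strand), encodes the isomerase that moves the double bond of the ring. It was at 60.1, 61.7 and 55.8 CPM in Bnc1+/+ ovaries against 27.5, 36.5 and 34.2 CPM in Bnc1tr/tr. Its wild-type ovaries had the narrowest spread of the arm. Ebp fell 1.81-fold (95% interval 1.5 to 2.18, edgeR, Benjamini-Hochberg adjusted p = 0.0068). Sc5d, on chromosome 9 (42251595 to 42264256, minus strand), encodes the desaturase that makes the direct precursor of both cholesterol and vitamin D. Its values were 85.5, 127 and 87.5 CPM in Bnc1+/+ ovaries against 45.8, 42.5 and 53.9 CPM in Bnc1tr/tr. Sc5d fell 2.11-fold (95% interval 1.6 to 2.77, edgeR, Benjamini-Hochberg adjusted p = 0.012). Dhcr7, on chromosome 7 (143823145 to 143848410, plus strand), encodes the reductase that yields cholesterol itself, and its loss in people leads to Smith-Lemli-Opitz syndrome. Its level was 366, 389 and 318 CPM in Bnc1+/+ ovaries against 46.7, 117 and 117 CPM in Bnc1tr/tr. Bnc1tr/tr replicate 1 was thus far below the other mutants. Dhcr7 fell 3.82-fold (95% interval 2.28 to 6.40, edgeR, Benjamini-Hochberg adjusted p = 0.015). Without Bnc1+/+ replicate 4, Ebp and Dhcr7 missed the threshold (edgeR, Benjamini-Hochberg adjusted p = 0.053 and 0.080), at log2 fold changes of -0.83 and -1.87.

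**Figure D2:**
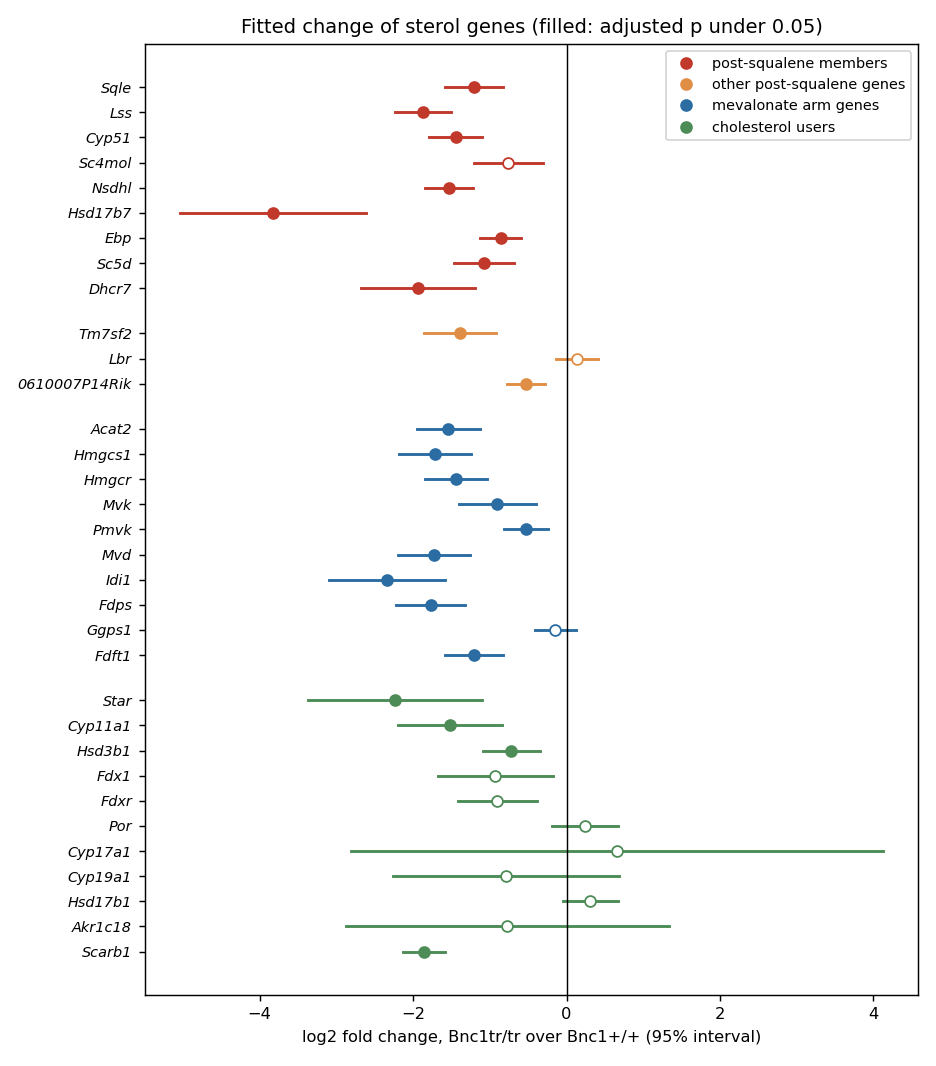
Log2 fold change of Bnc1tr/tr over Bnc1+/+ ovaries (x axis, point with 95% interval from edgeR, n = 3 each) for the 9 members (red), other post-squalene genes (orange), the mevalonate arm (blue) and genes that use cholesterol (green), with filled points for DEGs. All 9 members lie left of 0, between -3.82 for Hsd17b7 and -0.76 for Sc4mol, whereas Lbr is at 0.14.

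Of the 3 post-squalene genes outside the 9 members that are described here (Tm7sf2, Lbr and 0610007P14Rik), 2 were DEGs, both lower, against 4.19% of all genes tested. Lbr was the exception. Without Bnc1+/+ replicate 4 the count was 0, and without Bnc1+/+ replicate 1 or 7 or Bnc1tr/tr replicate 2 it was 1.

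Ratios between neighbouring steps were taken within each ovary, as a description. The difference in mean log2 ratio, Bnc1tr/tr minus Bnc1+/+, was -0.64 for Lss over Sqle, 0.65 for Sc4mol over Cyp51, -0.74 for Nsdhl over Sc4mol, -2.40 for Hsd17b7 over Nsdhl, 3.07 for Ebp over Hsd17b7 and -0.99 for Dhcr7 over Sc5d, and these did not overlap between the genotypes. The ratios of Cyp51 to Lss (0.43) and of Sc5d to Ebp (-0.19) overlapped. Neighbouring ratios share a gene, so a low gene counts in both. No test was made of these ratios.

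**Figure D3:**
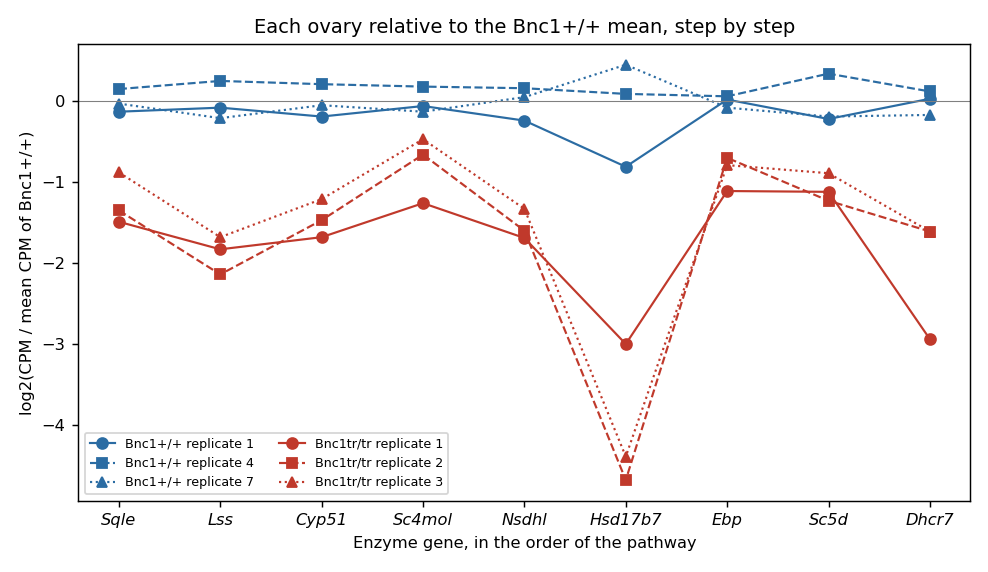
Level of each member in each ovary as log2 of its CPM over the Bnc1+/+ mean (y axis), in pathway order (x axis), with Bnc1+/+ ovaries in blue and Bnc1tr/tr ovaries in red and 1 line per ovary. Each red line is higher at Sc4mol than at the genes beside it and has its lowest point at Hsd17b7, at -3 for replicate 1 and at -4.68 and -4.39 for replicates 2 and 3, and replicate 1 falls to -2.94 at Dhcr7 where the other mutants are both at -1.61.

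The ovaries of a genotype were also ranked gene by gene. Bnc1+/+ replicate 4 was the highest wild-type ovary for 8 of the 9 genes, whereas the lowest was replicate 1 for 5 genes and replicate 7 for 4. Bnc1tr/tr replicate 3 was the highest mutant ovary for 7. Bnc1tr/tr replicate 1 was the lowest for 6 genes and the highest for 1, Hsd17b7. Across the arm the median level relative to the Bnc1+/+ mean was -1.68, -1.47 and -1.21 on the log2 scale in Bnc1tr/tr replicates 1, 2 and 3, and -0.13, 0.16 and -0.08 in Bnc1+/+ replicates 1, 4 and 7. Hsd17b7 was thus the member for which Bnc1tr/tr replicate 1 stood above the other mutants.

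To compare levels between genes, CPM were divided by the length of all annotated exons of a gene (in kb, GENCODE M21). On this scale Hsd17b7 was the highest of the 9 genes in Bnc1+/+ ovaries, at 143 ± 57.7 CPM per kb, followed by Dhcr7 at 61.5 ± 6.23 (SD, n = 3 each). Sc4mol (39.5 ± 4.49) and Cyp51 (38.1 ± 5.41) came next and did not differ beyond their spread, and Lss was the lowest at 11.8 ± 1.98 (SD, n = 3 each). In Bnc1tr/tr ovaries Sc4mol was the highest at 23.3 ± 6.21 CPM per kb, followed by Dhcr7 at 16.1 ± 6.98, and Hsd17b7, at 10.1 ± 6.77, was within the spread of Nsdhl (10.4 ± 1.37), Sc5d (9.74 ± 1.21) and Sqle (9.38 ± 2.16, SD, n = 3 each). The share of Hsd17b7 in the summed level of the arm was 25.8%, 35.2% and 45.7% in Bnc1+/+ ovaries against 18.6%, 5.05% and 5.45% in Bnc1tr/tr. That of Sc4mol was 12.0%, 10.3% and 8.44% in Bnc1+/+ ovaries against 17.1%, 22.7% and 22.8% in Bnc1tr/tr. Shares of a sum are tied to each other, so a smaller part for Hsd17b7 leaves a larger part for the rest. The length of each gene joins the exons of all its annotated transcripts (10.79 kb for Lss), which can make its level per kb a low estimate. The size of this effect can differ between genes, so the order of the genes and the shares are approximate.

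**Figure D4:**
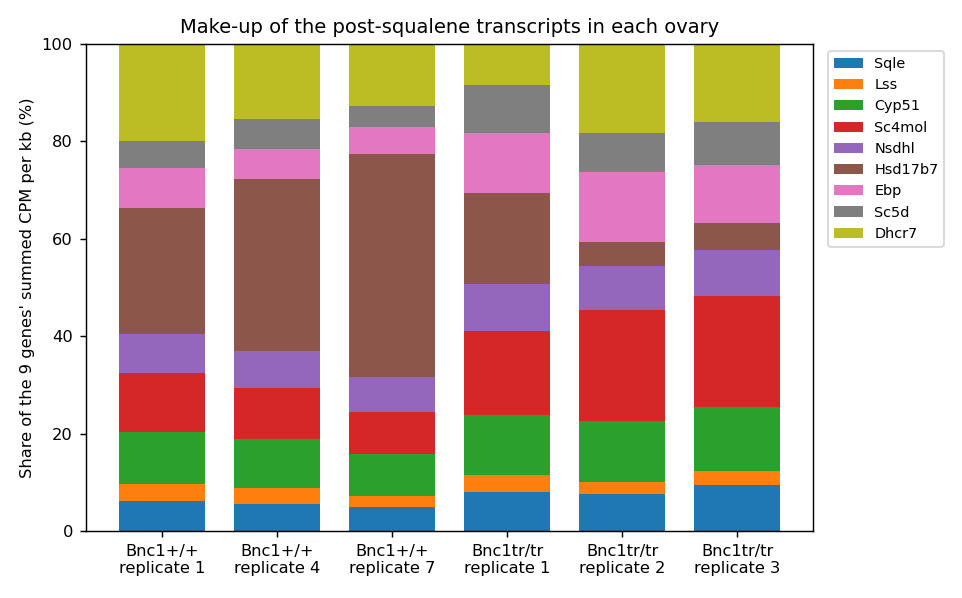
Make-up of the arm in each ovary, as the share (%) of each of the 9 genes in their summed CPM per kb of exon, 1 bar per ovary. Hsd17b7 (brown) takes 25.8% to 45.7% of the bars of Bnc1+/+ ovaries and 5.05% to 18.6% of those of Bnc1tr/tr ovaries, while Sc4mol (red) takes 17.1% to 22.8% of the latter.

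Sequence that the 9 genes share with other annotated genes was looked for. No transcript of another GENCODE gene matched the longest protein-coding transcript of a member over 200 bases or more at 90% identity or above. Other transcripts of the members and shared stretches under 200 bases were not searched, so misplaced reads are not excluded. Exons of Cyp51 shared 3.76% of their length with Akap9 and those of Lss 3.53% with 4930483K19Rik, both on the opposite strand, and whether the counting used strand is not given in the sources used here.

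The steps before and the regulators above the arm were read from the same fit. Among all genes tested 4.19% were DEGs lower in Bnc1tr/tr ovaries. Of 10 genes of the mevalonate arm, 9 were DEGs and all 9 were lower. The median log2 fold change over the 10 was -1.49, close to the -1.44 of the post-squalene members. The 1 gene that missed was Ggps1, at a branch that leads away from sterols (log2 fold change -0.15, 95% interval -0.41 to 0.12, edgeR, Benjamini-Hochberg adjusted p = 0.48). For the mevalonate arm the count of lower DEGs was 7 or 8 without 1 ovary, and 7 with library size as the only scaling. Of 15 sterol regulators, 5 were DEGs, all lower, namely Srebf2 itself (log2 fold change -0.47), its escort Scap (-0.83), the retention factor Insig1 (-0.93), the sterol carrier gene Stard4 (-0.81) and Npc2 (-1.04), which exports cholesterol from lysosomes. Their median over all 15 was -0.21. The count of regulators was 2 without Bnc1+/+ replicate 4 and 3 without Bnc1tr/tr replicate 2 or 3.

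Among 11 genes that take up or use cholesterol for steroids, 4 were DEGs, all lower, against 4.19% of all genes tested. Scarb1, the receptor for high-density lipoprotein, fell 3.63-fold (edgeR, Benjamini-Hochberg adjusted p = 0.00041), and Star, Cyp11a1 and Hsd3b1, which carry cholesterol into the mitochondrion and make progesterone from it, had log2 fold changes of -2.23, -1.52 and -0.72. The count was 1 without Bnc1+/+ replicate 1, 4 or 7 or without Bnc1tr/tr replicate 3.

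Markers of luteal cells were read from the same libraries. Which cells of the ovary held the sterol enzyme transcripts was not measured here. Of 8 corpus luteum markers 6 were DEGs and lower, as were 4.19% of all genes tested. Among the 6 were the hormone receptor genes Lhcgr (log2 fold change -3.01) and Prlr (-1.45). The markers summed to between 13000 and 16300 CPM in Bnc1+/+ ovaries and to between 2770 and 6190 CPM in Bnc1tr/tr, 30.2% of the Bnc1+/+ mean, beside 27.5% for the 9 enzymes. Both sums rest on few genes. Of the mean luteal sum of 15200 CPM in Bnc1+/+ ovaries, Cyp11a1 held 10200 and Star 2130, and both are also among the genes that use cholesterol. Hsd17b7 held 730 of the 1990 CPM of the enzymes. Akr1c18 and Parm1 overlapped between the genotypes. None of the 8 luteal markers was at 0 in any ovary, and their part in the result was not tested. Of the other lists, all 4 endothelium markers were DEGs and lower (median log2 fold change -0.69), 4 of 9 oocyte markers and 2 of 8 granulosa markers were DEGs and higher, as were 2.88% of all genes tested, and the summed adipocyte markers ranged from 13.4 to 78.2 CPM in Bnc1+/+ and from 28.7 to 253 CPM in Bnc1tr/tr ovaries. Bnc1tr/tr replicate 1 had the lowest luteal sum of all, 2770 CPM, and the lowest sum of the 9 enzymes, 470 CPM, but the highest Hsd17b7 of its genotype. The luteal markers Sfrp4 (387, 243 and 168 CPM in Bnc1tr/tr replicates 1, 2 and 3) and Lhcgr (92.8, 86 and 79 CPM) were also highest in replicate 1. The other luteal markers were highest in replicate 2 or 3. The log2 ratio of Hsd17b7 to Star was -0.73 in Bnc1tr/tr replicate 1 and -4.60 and -3.89 in the other mutants, against -2.39, -1.73 and -0.71 in Bnc1+/+, so that ratio overlapped between the genotypes. The ratio of Hsd17b7 to Lhcgr overlapped too (-0.39, -0.04 and 0.46 in Bnc1+/+ ovaries against -0.03, -1.60 and -1.18 in Bnc1tr/tr). The ratio of Hsd17b7 to Prlr did not overlap (0.34, 1.16 and 1.47 in Bnc1+/+ ovaries against 0.21, -2.52 and -1.99 in Bnc1tr/tr), although Bnc1tr/tr replicate 1 lay close to the lowest wild-type value.

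**Figure D5:**
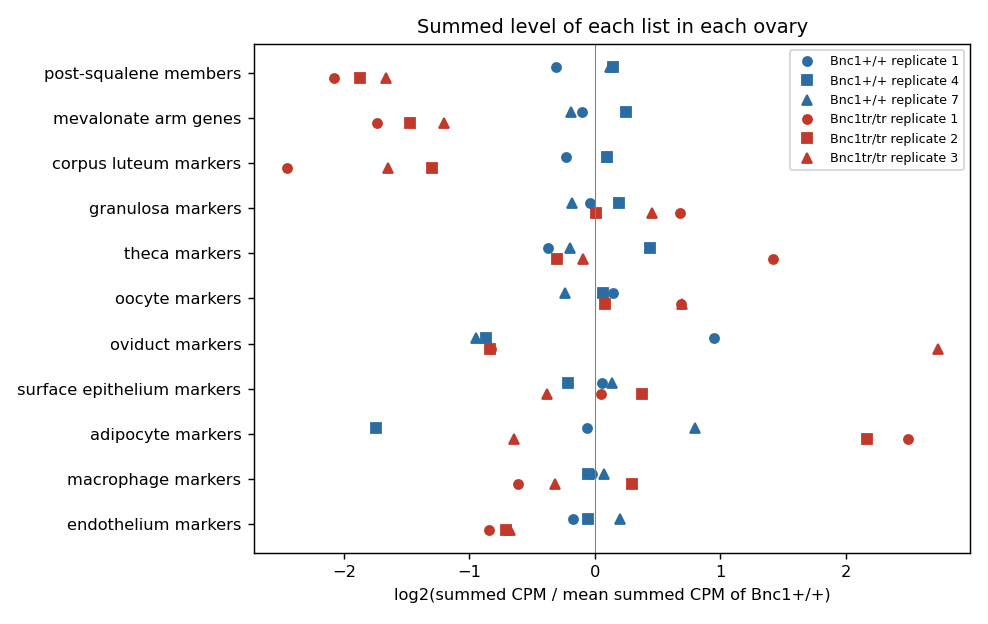
Summed CPM of 11 gene lists in each ovary as log2 of its ratio to the Bnc1+/+ mean (x axis), 1 row per list, with Bnc1+/+ ovaries in blue and Bnc1tr/tr ovaries in red. The 9 post-squalene members, the mevalonate arm, the corpus luteum markers and the endothelium markers separate the genotypes among the lists plotted, while single libraries stand out for the oviduct list (Bnc1tr/tr replicate 3, 551 CPM) and the theca list (Bnc1tr/tr replicate 1, 456 CPM).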

How the data were processed

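The authors extracted total RNA with TRIzol, made single-end Ion Total RNA-Seq libraries and sequenced them on the Ion Proton. They deposited raw counts, whole numbers of reads per gene symbol without normalization. The aligner, counting tool and annotation are not given in the sources used here. The submitters' processing notes name the mouse build mm10 and a pig build, Sscrofa10.2, with no role. The table lists 44788 genes.

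Counts were filtered with filterByExpr (minimum count 10), normalized with TMM and compared between 3 and 3 ovaries with edgeR 4.0.16 (glmQLFit and glmQLFTest, no covariate) in R 4.3.3. Tests were two-sided and p values were adjusted by Benjamini-Hochberg over 19423 genes. Standard errors and 95% intervals come from that fit. The paper reports differentially expressed genes between the ovaries of these genotypes. The test behind those calls was not found in the sources used here. Alternatives were DESeq2 1.42.0, limma-voom 3.58.1, a robust fit, other scalings, filters and thresholds, and each ovary left out. The fit was also run on counts simulated with known changes from the mean levels and dispersions of these data. That run checks the code only and cannot show how differences between these libraries act on the result. Ratios and levels per kb are descriptions. The replicates are labelled as separate samples, and the p values set the difference between genotypes against the spread between replicates. Replicate libraries differed beyond counting error (chi-square over its degrees of freedom 15.6 or more in each pair).

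The members and gene lists were chosen with earlier results of these data known, and the lists were written from general knowledge. Named genes are the 9 members, genes of those lists and, by rule, the 5 non-members with a mean of at least 5 CPM whose log2 CPM (prior count 2) over the 6 ovaries correlated best with the mean z-score of the members, and the 5 correlating best with Hsd17b7. Some genes of the lists are not reported here and were left out of the list counts. Faxdc2 was not analysed here, and Adgre1 was matched as Emr1. Gene positions come from GENCODE M21 on GRCm38 (mm10).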

Additional observations from a re-analysis of the deposited data

How the results depend on the processing

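The median log2 fold change of the 9 members was -1.44, lay between -1.57 and -1.33 without 1 ovary, and between -1.44 and -1.34 under 7 other settings. The number of members that were DEGs and lower was 8, and ranged from 6 to 9 without 1 ovary and from 7 to 9 otherwise. Of 117 single values of a member under an alternative, all were negative, 112 stayed on the same side of the threshold, 3 crossed it upward (Sc4mol) and 2 downward (Ebp and Dhcr7 without Bnc1+/+ replicate 4). Fewer samples enter each fit without an ovary. Over all genes there were 1372 DEGs, and between 320 (without Bnc1+/+ replicate 4) and 1282 without 1 ovary, 2420 with DESeq2 and 648 with a further threshold of 1 on the absolute log2 fold change. With that fold threshold 1 other post-squalene gene and 1 sterol regulator passed as lower. Without 1 ovary the counts of lower DEGs ranged from 0 to 2 for the other post-squalene genes, from 2 to 4 for the sterol regulators and from 1 to 5 for the genes that use cholesterol. With library size as the only scaling the median of all genes tested was 0.118 in place of 0.018 and the share of DEGs that were lower was 35.6% in place of 59.3%, while 8 members were still lower, with a median of -1.34. The causes of these changes were not tested. Level per kb was also given as CPM without length, above. No paired analysis was possible because the litter of each mouse is not given, and the replicate numbers do not link ovaries of the genotypes.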

Other observations

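The oxygen-using enzymes SQLE, CYP51, SC4MOL and SC5D draw electrons from cytochrome P450 reductase or cytochrome b5, and no gene of these donors was a DEG. Of 5 donor genes (Por, Cyb5, Cyb5b, Cyb5r3 and Cyb5r1), 0 were DEGs with edgeR, 0 had an unadjusted p under 0.05 and 0 were called by DESeq2 or limma-voom. Since 7.06% of all genes tested were DEGs, a count of 0 among 5 is near the background and is no result about the donors. Their log2 fold changes lay between -0.29 for Cyb5 and 0.24 for Por, and their summed level was 1280 ± 66.6 CPM in Bnc1+/+ and 1170 ± 99.7 CPM in Bnc1tr/tr ovaries (SD, n = 3 each).

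Over the 6 ovaries, the gene outside the arm whose profile was most like the mean of the 9 members, among 13080 genes with a mean of at least 5 CPM, was Fdps (Pearson r = 0.9978 on log2 CPM), which makes the farnesyl diphosphate used for squalene. The next were Gimap6, Ide, Snap47 and Dync1i2 (r from 0.9974 to 0.9965). Hsd17b7 was most like Spns2 (r = 0.9981), a transporter gene of sphingosine 1-phosphate that fell from 151 to 29.1 CPM (log2 fold change -2.38, edgeR, Benjamini-Hochberg adjusted p = 0.0035), followed by Trpc4ap, Dlst, Kifc3 and 1010001N08Rik. Within the arm, Cyp51 was the most like the mean of the other 8 members (r = 0.999) and Hsd17b7 the least (r = 0.875). These are descriptions over 6 libraries that fall into 2 genotypes, and genes with much smaller changes reach similar values, such as Dlst at a log2 fold change of -0.22.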
